A study of Rattus norvegicus with 13 samples.

Results

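Corticotropin-releasing hormone (CRH), the urocortins and pituitary adenylate cyclase-activating polypeptide (PACAP) are peptides by which the brain drives and tunes the response to stress. The genes described here are Crh, Ucn and Ucn3 (the ligands CRH, urocortin and urocortin 3), Crhr1 and Crhr2 (their receptors), Crhbp (the secreted CRH-binding protein), Adcyap1 (PACAP) and Adcyap1r1 (its selective receptor PAC1). They were chosen by name, and all 8 were found among the 17366 rows of the table, each in a single row of its own. Hypothalamus, taken whole, gave 13 RNA libraries, 1 per rat, from 7 rats given Lab Rodent Diet 5001, a standard chow with 0.30% fructose, and 6 given Research diets D05111802 with 55% fructose. Rats were housed in pairs and the diets began on postnatal day 25. All were fasted overnight on day 79 and decapitated on day 80, with either glucose (2 g per kg) or saline injected into the peritoneum 1 h earlier. Of the larger cohort, 31 animals had glucose and 29 had saline. The sources used here do not give strain, sex, cage or the injection of each sequenced rat.

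CRH made by neurons of the paraventricular nucleus reaches the pituitary through the portal vessels and releases corticotropin, which drives corticosterone release from the adrenal. CRH acts mainly through CRHR1, urocortin binds both receptors, urocortin 3 prefers CRHR2, and the binding protein sequesters CRH and urocortin. PACAP acts through PAC1 and is known to act upstream of CRH neurons. The receptors belong to the class B family of G protein-coupled receptors and raise cyclic AMP. Ucn is best known from the Edinger-Westphal nucleus of the midbrain, Ucn3 from the medial hypothalamus and amygdala, Crhr2 from the ventromedial hypothalamus and lateral septum, and Adcyap1 from excitatory neurons of the ventromedial and mammillary hypothalamus.

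The unit is FPKM, a fragment count divided by transcript length and by library size, so that levels of different genes can be set side by side. Tests were run on log2(FPKM + 0.5), which understates the change of low genes. Total FPKM lay between 556902 and 608058 per rat. Among markers of the labelled tissue, Pmch, which encodes melanin-concentrating hormone, had a mean of 5107 ± 1083 FPKM (SD) in the 7 chow rats and of 3494 ± 1782 FPKM in the 6 fructose rats, and Hcrt, the orexin gene, at 700 ± 171 and 527 ± 294 FPKM. Markers of neighbouring regions and of blood moved with diet. All 9 tested markers of midbrain dopamine neurons were called higher on fructose, their summed level being 66.6 to 91.5 FPKM in chow rats and 176 to 539 FPKM in fructose rats. Of 12 thalamus markers 8 were called lower and 1 higher (sums of 674 to 1438 and 576 to 992 FPKM), and all 5 tested blood cell markers were called higher (246 to 655 and 515 to 2315 FPKM). Of 4 tested mammillary markers 1 was called higher (8.60 to 30.4 and 26.3 to 43.6 FPKM). In septum and striatum the sums were 118 to 181 and 120 to 207 FPKM with 1 of 6 called, in cortex and amygdala 13.2 to 66.9 and 9.04 to 41.6 FPKM with 1 of 4, in choroid plexus 10.7 to 59.5 and 6.73 to 38.6 FPKM with 0 of 3 (Otx2 at 0 in all rats), and in pituitary 6.05 to 15.0 and 5.36 to 32.8 FPKM with 0 of 4. Of the 8 pituitary markers, Prl and Pou1f1 were listed at 0 in all 13 rats and Gh1 and Pitx1 were under the filter, whereas Cga reached 6.59, Tshb 7.42, Lhb 4.57 and Pomc, which hypothalamic neurons also make, 14.2 FPKM in the highest rat. The part of these tissues in the results was not tested.

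The question was how the level of each stress peptide gene differed with the diet. PACAP and urocortin transcripts were higher on fructose, whereas Crh, Ucn3, both CRH receptors, Crhbp and the PACAP receptor did not pass the test. By limma, with Benjamini-Hochberg adjustment over all 11837 genes tested, 2 of the 8 genes were called at an adjusted p under 0.05, both higher. Over all genes tested 3.94% were called, 1.66% higher and 2.27% lower. At an unadjusted p under 0.05 there were 4 of 8 genes, against 19.2% of all genes, and the median log2 fold change of the 8 was 0.23, against 0.0009 over all genes tested. In bulk tissue fewer cells of a type and less RNA per cell cannot be told apart. Nothing in the labels says whether cage mates were split between sequenced samples, and the p-values treat the rats as independent. In the sample titles, the first number is shared by chow replicates 1 and 2 and never by rats of different diets. What that number stands for is not known here.

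**Figure D1:**
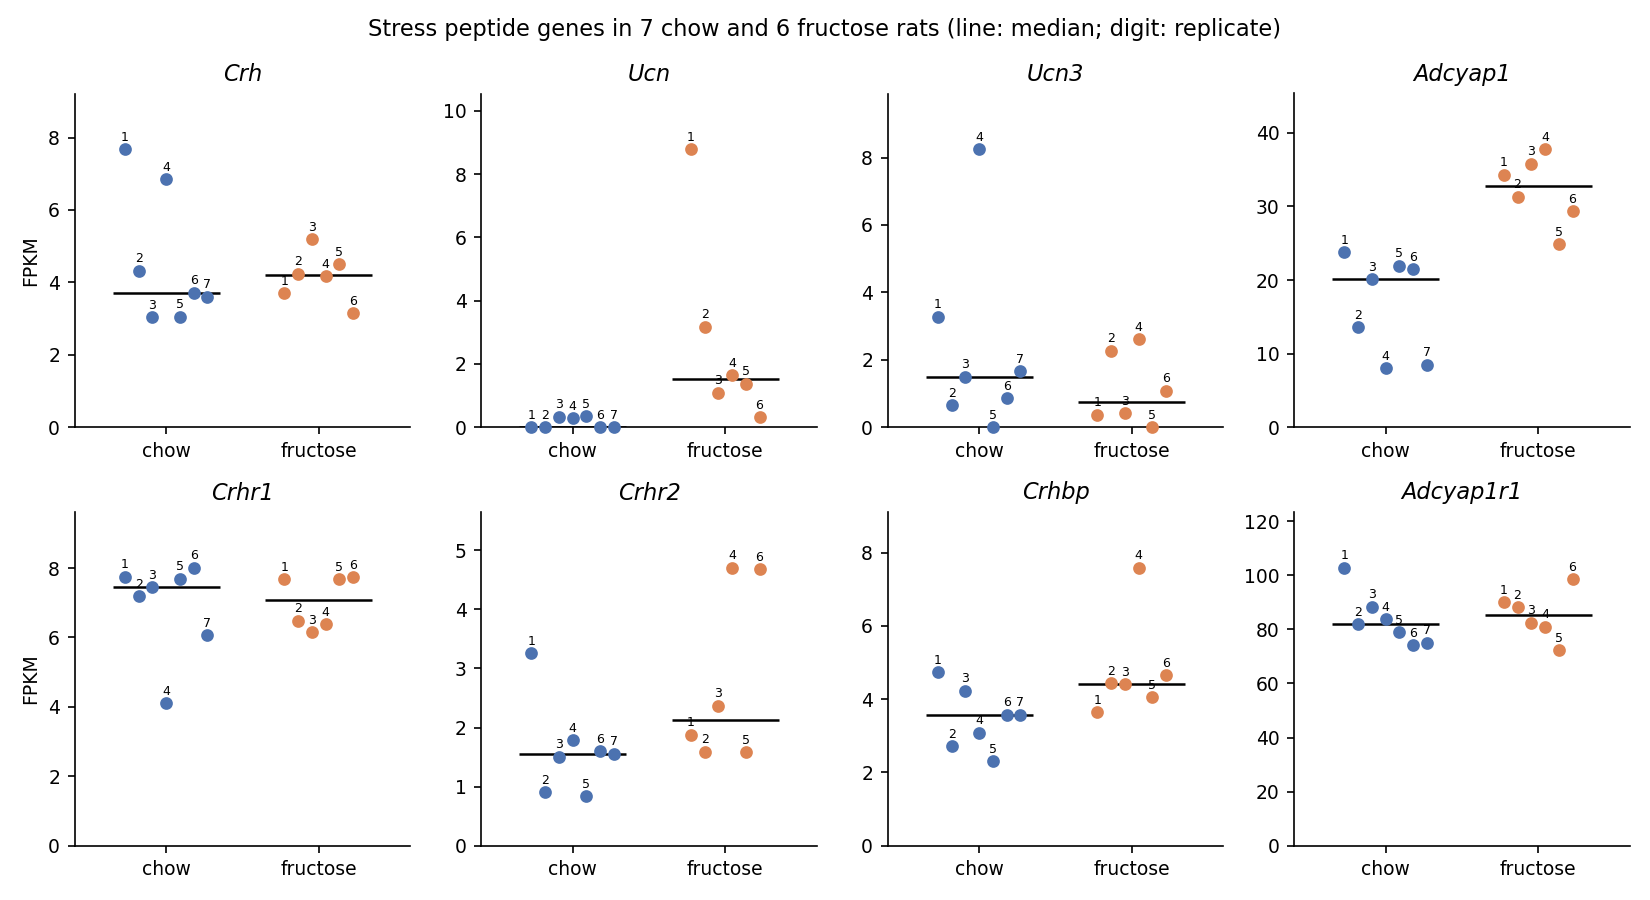
FPKM of each gene (vertical axis, linear, starting at 0 in every panel) in each of 7 chow rats (blue) and 6 fructose rats (orange), with digits giving the replicate and lines the median. For Adcyap1 the fructose rats sit between 24.9 and 37.8 and the chow rats between 8.003 and 23.8, whereas for the other 7 genes the diets overlap.

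Adcyap1, the PACAP gene, was the most abundant of the 4 ligands. Its lowest, median and highest values were 8.003, 20.1 and 23.8 FPKM in the 7 chow rats and 24.9, 32.8 and 37.8 FPKM in the 6 fructose rats. Every fructose rat lay above every chow rat, which held for 0.879% of all genes tested (0.727% had every fructose rat below every chow rat, 1.61% in all), though the gap between the nearest rats of the diets was narrow (chow replicate 1 at 23.8 and fructose replicate 5 at 24.9 FPKM). The chow rats were spread more widely, and chow replicates 4 and 7 stood lowest, at 8.003 and 8.48 FPKM. The mean rose from 16.8 ± 6.65 FPKM (SD, n = 7) to 32.2 ± 4.73 FPKM (SD, n = 6), a ratio of means of 1.92 and a log2 fold change of 1.02 ± 0.24 (SE, 95% interval 0.51 to 1.53, limma adjusted p = 0.0344). The exact two-sided permutation test gave p = 0.00175, where 0.000583 is the smallest the splits of 13 rats allow, and an adjusted p of 0.0821 over all genes. That test called 0 of 11837 genes after adjustment and 18.8% of genes at an unadjusted p under 0.05.

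The call for Adcyap1 was lost in 7 of 13 fits with 1 rat left out, although its size changed little. With 1 rat left out the log2 fold change lay between 0.87 and 1.123. Leaving out a chow rat raised the limma adjusted p to 0.0746 (replicate 2), 0.0601 (replicate 4) or 0.0613 (replicate 7). Leaving out a fructose rat raised it to 0.0638 (replicate 2), 0.0558 (replicate 3), 0.0838 (replicate 4) or 0.0753 (replicate 6). It stayed under 0.05 in the other 6 fits. The adjusted p also depends on the other genes tested. Without fructose replicate 1 an unadjusted limma p of 0.00189 kept the call, whereas without fructose replicate 6 a smaller one of 0.00131 did not. Calls over all genes were 474 and 113 in these fits. A lost call is thus not by itself a weaker difference in Adcyap1.

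Levels of Adcyap1 ran beside those of the mammillary markers within both diets. Chow replicates 4 and 7, lowest for Adcyap1, were also the lowest for the summed mammillary markers, at 8.60 and 12.2 FPKM. On fructose replicate 5 was lowest for both, at 24.9 FPKM for Adcyap1 and 26.3 FPKM for the sum. Chow replicate 1 departed from this order, with the highest Adcyap1 of the chow rats and a low sum of 14.4 FPKM. Chow replicates 5 and 6 had sums of 30.4 and 28.6 FPKM, above that of fructose replicate 5, and Adcyap1 levels of 21.9 and 21.5 FPKM, below it. Foxb1, a transcription factor of the mammillary body, was the 1 called marker of this list, at 2.42 ± 0.652 FPKM on chow and 5.51 ± 2.23 FPKM on fructose (log2 fold change 0.99 ± 0.23, limma adjusted p = 0.0320). It was called in 7 of 13 fits with 1 rat left out, and the call was lost (adjusted p of 0.0518 to 0.0767) on leaving out replicates 2, 4 and 7 of the chow rats and 3, 4 and 6 of the fructose rats. Whether the mammillary share of the dissected tissue has a part in the Adcyap1 difference was not tested.

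Ucn, the urocortin gene, was at the lower edge of detection on chow. It was listed at 0 in chow replicates 1, 2, 6 and 7 and stood at 0.330, 0.290 and 0.352 FPKM in chow replicates 3, 4 and 5. In fructose replicates 1 to 6 it stood at 8.79, 3.18, 1.095, 1.64, 1.38 and 0.318 FPKM. Thus 5 of 6 fructose rats lay above every chow rat, and fructose replicate 6 lay among the chow rats with reads. An FPKM of 0 can be a failed estimate, so no mean is given for this gene.

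The log2 fold change of Ucn was 1.94 ± 0.42 (SE, 95% interval 1.05 to 2.83, limma adjusted p = 0.0276), with an exact permutation p of 0.00175 (adjusted 0.0821). Because its level is so low, the size depended on the constant added before the log, being 3.30 with 0.1 and 1.41 with 1 in place of 0.5. Its adjusted p rose to 0.0616, 0.0517 or 0.0535 when chow replicate 2, 4 or 7 was left out, and to 0.0565 or 0.0636 when fructose replicate 2 or 4 was. When left out, each of chow replicates 1, 2, 6 and 7 (Ucn at 0) gave the same log2 fold change of 1.89. The unadjusted limma p was then 0.000795 to 0.000809, but the adjusted p was 0.0217 to 0.0616. Between these fits the adjusted p of Ucn thus varied with the adjustment over all genes. Without fructose replicate 1, by far the highest rat, the log2 fold change was 1.55 and the call was kept (adjusted p = 0.0246). Every chow value of Ucn lay under 0.5 FPKM, the mean set by the filter. Ucn thus entered the main test only through the fructose rats, where it is high. With no filter on low values its limma adjusted p was 0.0362. A filter at a mean of 2 FPKM left Ucn out of the test.

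By a rough estimate, few sequenced fragments lay behind the Ucn values. The spacing of low FPKM values gave a rough worth of 1 fragment in each rat, between 0.874 and 1.22 relative to chow replicate 1. On that scale the Ucn values were close to whole steps of 1 size (within 0.1 of a whole number in 3 of 3 chow rats and 5 of 6 fructose rats above 0). The nearest whole steps were 1 each in chow replicates 3, 4 and 5, and 24, 8, 3, 5, 4 and 1 in fructose replicates 1 to 6. They sum to 3 steps over the 7 chow rats and 45 over the 6 fructose rats, and fructose replicate 1 alone gave 24 of them. These steps are an estimate, since no read counts are used here. The step size was sought only near the smallest value above 0 of the gene. Within that span it was the one that brought the low values nearest to whole multiples. The smallest value was thus taken as about 1 fragment from the outset, and were it worth more, every sum would be larger. Closeness of the values to whole steps also follows in part from that choice of step size.

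Across the fructose rats, Ucn and the midbrain dopamine markers had the same extremes. Fructose replicate 1 was highest and fructose replicate 6 lowest for both, the summed markers being 539 and 176 FPKM. The remaining 4 fructose rats had sums of 271 to 358 FPKM, and fructose replicate 5, with the second highest sum, was the fourth for Ucn. Slc6a3, the dopamine transporter, stood at 125 FPKM in fructose replicate 1, at 28.3 FPKM in fructose replicate 6 and at 0.285 to 5.95 FPKM in chow rats. Markers of the oculomotor and Edinger-Westphal nuclei did not move in that way, with 0 of 2 tested genes called. Phox2a, a transcription factor of oculomotor neurons, was at most 0.180 FPKM in any rat and was listed at 0 in 2 chow and 2 fructose rats. Chat, the acetylcholine-synthesizing enzyme, was at most 0.951 FPKM. Cartpt, which encodes the peptide CART and is made in many hypothalamic neurons too, stood at 186 ± 55.6 FPKM on chow and 174 ± 69.7 FPKM on fructose. Whether midbrain tissue has a part in the Ucn difference was not tested.

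Promoter windows from RefSeq (build GRCr8, 250 bases before each annotated start) were read for the genes because the receptors signal through cyclic AMP, and 7 of the 8 genes had one, Crh being the exception. The Ucn window, chr6:30957836-30958085 on the plus strand, is shown because it holds the palindrome TGACGTCA, the full cyclic AMP response element (CRE), in capitals, its first base 110 bases before the start.
Ucn: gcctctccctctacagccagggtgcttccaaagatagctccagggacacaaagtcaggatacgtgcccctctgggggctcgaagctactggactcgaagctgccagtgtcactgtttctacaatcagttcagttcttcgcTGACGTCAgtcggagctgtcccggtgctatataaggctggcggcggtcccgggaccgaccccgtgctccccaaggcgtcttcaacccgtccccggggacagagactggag

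The full element was found in 531 of 33469 windows of that length in the rat table, or 1.59%. The shorter element TGACG, searched on both strands and contained in the full element, was found in 6097 windows, or 18.2%. Outside a full element, 1 shorter element each was found in the windows of Ucn3, Crhr2 and Crhbp. In Crhr2 and Crhbp it lay on the opposite strand, so that the window reads CGTCA there. Its base farthest from the start lay 71, 105 and 100 bases before the start. Neither the full nor the shorter element was found in the windows of Adcyap1, Adcyap1r1 or Crhr1. The stretch of 30 bases around the element in Ucn (chr6:30957965-30957994) and around the shorter element in Ucn3 (chr17:71219574-71219603), both on the plus strand with the motif in capitals, read as follows.
Ucn: cagttcttcgcTGACGTCAgtcggagctgt
Ucn3: tgtcatctctgTGACGtgcacagctggctc

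These matches describe letters in a window, and no binding was measured. Ucn, with the full element, was called higher on fructose, and so was Adcyap1, with no match in its window.

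Crh itself, the releasing hormone of the stress axis, did not pass the test. Its lowest, median and highest values were 3.03, 3.71 and 7.68 FPKM in the 7 chow rats and 3.16, 4.21 and 5.20 FPKM in the 6 fructose rats. The fructose rats lay within the chow range, and the spread was wider on chow because chow replicates 1 and 4 stood at 7.68 and 6.86 FPKM and the other 5 at 4.32 FPKM or less. The log2 fold change was -0.07 ± 0.20 (SE, 95% interval -0.49 to 0.35, limma adjusted p = 0.891). Without chow replicate 1 it was 0.06, and without chow replicate 4 it was 0.03, so that its sign depended on each of these rats.

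The same chow rats had the highest vasopressin transcript. Avp, made in the paraventricular and supraoptic nuclei and partly in CRH neurons, stood at 512 and 601 FPKM in chow replicates 1 and 4 and at 5.08 to 95.9 FPKM in the other 5 chow rats. On fructose it ranged from 0.451 FPKM in replicate 1 to 214 FPKM in replicate 4. Over all 13 rats Avp thus spanned a far wider range than Crh. Its log2 fold change was -1.61 ± 1.53 (limma adjusted p = 0.634).

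Ucn3, urocortin 3, varied widely between rats, with a spread within diets (residual SD 1.19 on the scale of log2(FPKM + 0.5)) above that of 99.9% of genes tested. In chow replicates 1 to 7 it stood at 3.27, 0.647, 1.5, 8.25, 0, 0.859 and 1.65 FPKM, and in fructose replicates 1 to 6 at 0.370, 2.27, 0.415, 2.62, 0 and 1.09 FPKM. The diets overlapped widely, with 1 rat of each diet listed at 0. The log2 fold change was -0.56 ± 0.57 (95% interval -1.79 to 0.66, limma adjusted p = 0.663), an interval that includes a difference in either direction. Leaving out chow replicate 4 gave -0.20, fructose replicate 5 gave -0.28 and chow replicate 5 gave -0.89, so that its size rested on single rats. On the same rough scale, the values came to 46 steps over the chow rats, 25 of them in chow replicate 4, and 17 over the fructose rats.

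High Ucn3 went with high Avp within each diet. Chow replicates 4 and 1 were the highest chow rats for Ucn3 (8.25 and 3.27 FPKM) and for Avp (601 and 512 FPKM). On fructose, replicates 4 and 2 were highest for Ucn3 (2.62 and 2.27 FPKM) and for Avp (214 and 199.5 FPKM). Chow replicate 5 and fructose replicate 5, both at 0 for Ucn3, had Avp at 5.08 and 1.99 FPKM. Summed over the 12 hypothalamus markers, whose total is mostly Pmch, these 2 rats were the lowest of their diets, at 4097 and 1589 FPKM. Ucn2, the third urocortin and no member here, was under the 0.5 FPKM filter, with 0.863 FPKM as its highest value.

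**Figure D2:**
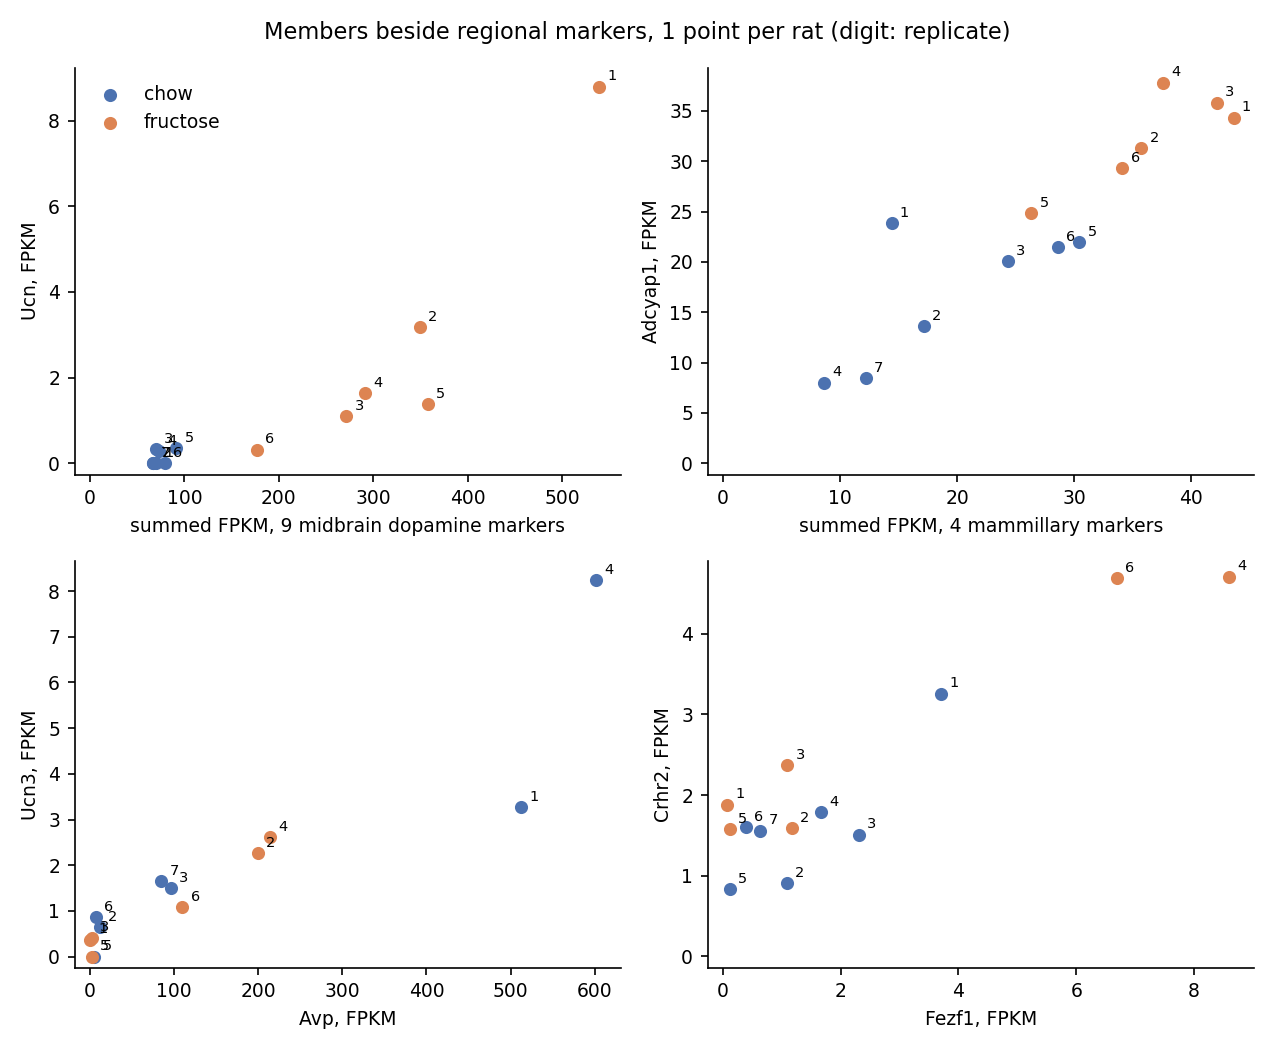
Each point is 1 rat (blue chow, orange fructose, digit replicate), with FPKM of a stress peptide gene on the vertical axis and FPKM of regional markers on the horizontal axis, both linear. Ucn is highest where the summed midbrain dopamine markers are highest (539 FPKM), Adcyap1 is lowest where the summed mammillary markers are lowest (8.60 FPKM), Ucn3 is highest where Avp is highest (601 FPKM), and Crhr2 is highest where Fezf1 is highest (8.59 FPKM).

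Crhr1, the main receptor for CRH, did not pass the test. Its lowest, median and highest values were 4.10, 7.46 and 8.01 FPKM on chow and 6.15, 7.08 and 7.74 FPKM on fructose, and the fructose rats lay within the chow range. The lowest chow rat was replicate 4, the rat with the highest Ucn3 and the lowest Adcyap1. Its log2 fold change was 0.04 ± 0.13 (95% interval -0.23 to 0.32, limma adjusted p = 0.900), and -0.07 without chow replicate 4.

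Crhr2, the receptor preferred by urocortin 3, had a higher mean on fructose but did not pass. Its lowest, median and highest values were 0.836, 1.56 and 3.26 FPKM on chow and 1.58, 2.13 and 4.71 FPKM on fructose. Fructose replicates 4 and 6, at 4.71 and 4.69 FPKM, and chow replicate 1, at 3.26 FPKM, stood apart from the other 10 rats, which were at 2.37 FPKM or less. On the log2 scale the change was 0.59 ± 0.27 (95% interval 0.01 to 1.17, unadjusted p = 0.0481, limma adjusted p = 0.256), and the exact permutation p was 0.0862.

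These 3 rats also had the highest levels of a pair of transcription factors of the ventromedial nucleus. Fezf1 stood at 8.59 and 6.69 FPKM in fructose replicates 4 and 6 and at 3.71 FPKM in chow replicate 1, against 2.305 FPKM or less elsewhere. Nr5a1, which defines that nucleus, stood at 4.24, 3.69 and 1.05 FPKM in the same rats, against 0.962 FPKM or less elsewhere. Summed over the 5 ventromedial markers, the range was 114 to 179 FPKM on chow and 101 to 146 FPKM on fructose, and most of that sum is Slc17a6, a vesicular glutamate transporter found well beyond the nucleus. The sum was 114 FPKM in chow replicate 1 and 127 and 113 FPKM in fructose replicates 4 and 6, so it did not set these rats apart. Of these 5 markers 2 were called higher, Sox14 and Nkx2-2 (limma adjusted p of 0.0389 and 0.0418). Fezf1 and Nr5a1 were not called (limma adjusted p of 0.843 and 0.380). The part of the ventromedial nucleus in the Crhr2 values was not tested.

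Crhbp, which sequesters CRH and urocortin, was also higher in the mean on fructose without passing. Its lowest, median and highest values were 2.31, 3.58 and 4.73 FPKM on chow and 3.65, 4.43 and 7.59 FPKM on fructose. All 6 fructose rats lay above the chow mean of 3.46 FPKM, but only fructose replicate 4 lay above every chow rat. The log2 fold change was 0.41 ± 0.17 (95% interval 0.06 to 0.77, unadjusted p = 0.0242, limma adjusted p = 0.181), with an exact permutation p of 0.0355 (adjusted 0.226). Without 1 rat at a time the log2 fold change lay between 0.28 and 0.49.

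Adcyap1r1, the PACAP receptor PAC1, was the most abundant and the steadiest of the 8 genes. Its lowest, median and highest values were 74.2, 81.9 and 103 FPKM on chow and 72.2, 85.4 and 98.5 FPKM on fructose. The coefficient of variation was 11.7% on chow and 10.5% on fructose, whereas that of its ligand was 39.6% and 14.7%. The log2 fold change was 0.03 ± 0.08 (95% interval -0.14 to 0.20, limma adjusted p = 0.878), an interval that leaves out a change of the size seen in Adcyap1.

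**Figure D3:**
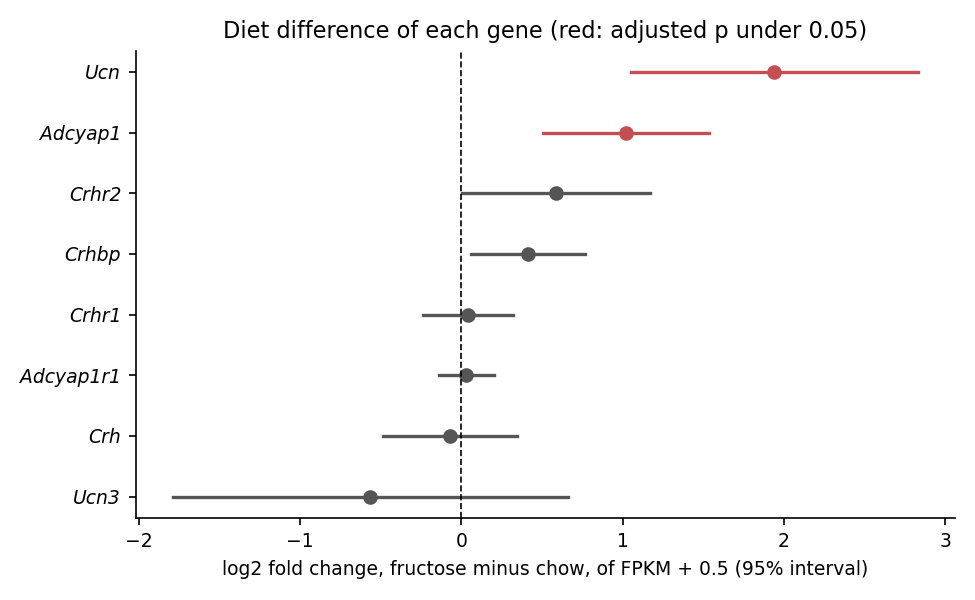
Log2 fold change of each gene (horizontal axis, fructose minus chow, on the log2 scale of FPKM + 0.5) with its 95% interval from limma over 7 chow and 6 fructose rats; red marks an adjusted p under 0.05. Ucn (1.94) and Adcyap1 (1.02) lie above 0, and the interval of Ucn3 (-1.79 to 0.66) is the widest.

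In order of level, Adcyap1r1 came first in both diets and Adcyap1 second. The ranges of these 2 genes did not overlap. On chow they were followed by Crhr1, Crh, Crhbp, Crhr2, Ucn3 and Ucn, with medians of 7.46, 3.71, 3.58, 1.56, 1.5 and 0 FPKM. On fructose the order was Crhr1, Crhbp, Crh, Crhr2, Ucn and Ucn3, with medians of 7.08, 4.43, 4.21, 2.13, 1.51 and 0.750 FPKM. All neighbours below Adcyap1 in these orders overlapped in range, so Crh and Crhbp, or Crhr2 and Ucn3, are not set apart by their levels. Adcyap1 and Crhr1 overlapped in range on chow, though Adcyap1 was the higher in each of 7 chow rats, and did not overlap on fructose. Among all genes tested, Crh stood above 21.7% by mean log2 level, Ucn above 2.3%, Adcyap1 above 59.8% and Adcyap1r1 above 89.1%.

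Ligand levels were also set against receptor and binding protein levels within each rat, as ratios of FPKM with no test. The ratio of Adcyap1 to Adcyap1r1 had a median of 0.227 on chow (range 0.0955 to 0.289) and of 0.368 on fructose (range 0.298 to 0.467), and the diets did not overlap. The receptor transcript thus exceeded that of its ligand in all 13 rats. Crh exceeded Crhbp in 6 of 7 chow rats and in 3 of 6 fructose rats, with medians of 1.32 (range 0.717 to 2.22) and 0.987 (range 0.550 to 1.18). The diets overlapped, with 2 fructose rats below every chow rat.

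The ratio of Crh to Crhr1 had medians of 0.594 on chow (range 0.397 to 1.67) and 0.620 on fructose (range 0.408 to 0.845). It was above 1 only in chow replicate 4, the rat in which Crh was high and Crhr1 low. Ucn3 to Crhr2 ran from 0 to 4.62 on chow (median 0.994) and from 0 to 1.42 on fructose (median 0.214). Its mean difference, fructose minus chow, was -0.846, and -0.288 without chow replicate 4. Crhr1 exceeded Crhr2 in all 13 rats, by a median factor of 4.94 on chow (range 2.299 to 9.21) and 3.33 on fructose (range 1.36 to 4.86), again with overlap.

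**Figure D4:**
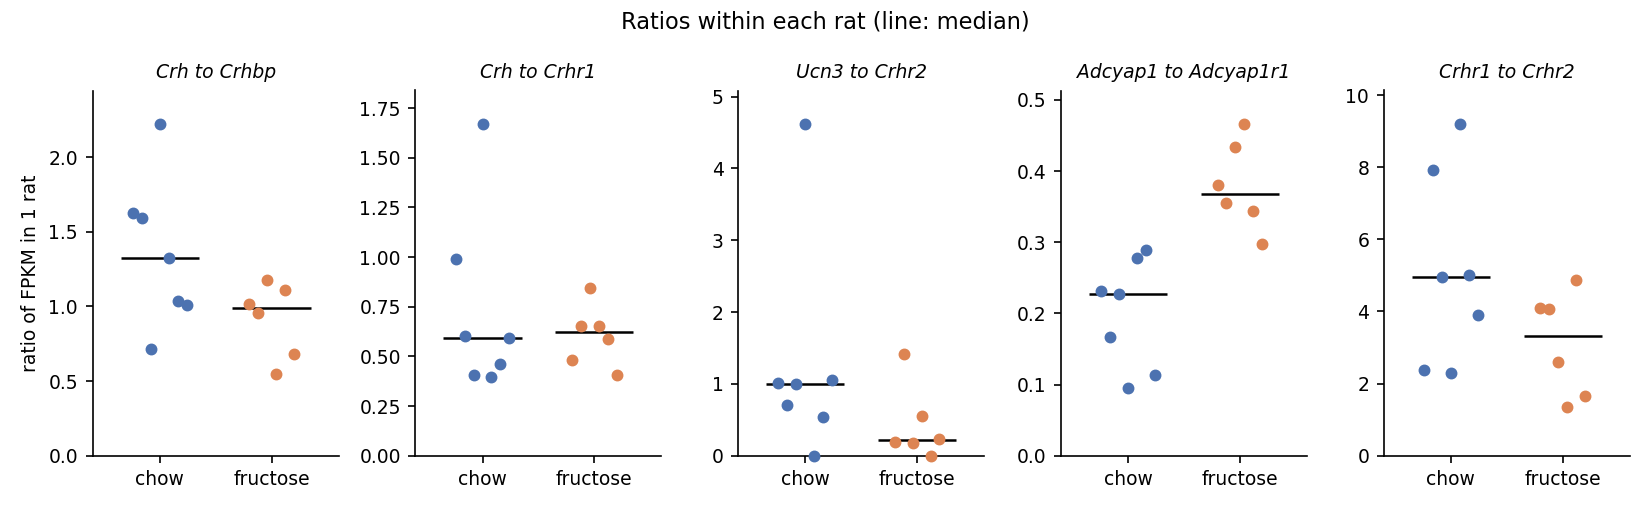
Ratio of the FPKM of 2 genes within a rat (vertical axis, linear, starting at 0), 1 point per rat for 7 chow (blue) and 6 fructose rats (orange), with lines at the median. The ratio of Adcyap1 to Adcyap1r1 runs from 0.298 to 0.467 on fructose and from 0.0955 to 0.289 on chow, whereas the other 4 ratios overlap between diets.

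The genes most like each of the 8 over the rats were ranked among 10086 genes by Pearson r of log2 values. The mean of each diet was removed first. The ranking is a description over 13 rats that share their tissue dissection. The highest of 10086 r values over 13 rats can be large by chance, and none was tested. For Ucn3 the most alike genes were Trh (r = 0.95), Oxt (0.92) and Sst (0.90), which encode thyrotropin-releasing hormone, oxytocin and somatostatin. For Adcyap1 they were Ryr2 (0.87), a calcium release channel, Ebf3 (0.86), a transcription factor, and P2rx5 (0.86), an ATP-gated channel. Within the diets, Ryr2 stood at 0.93 on chow and 0.26 on fructose and P2rx5 at 0.93 and 0.29, whereas Ebf3 stood at 0.89 and 0.85. Ebf3 was itself called higher on fructose (log2 fold change 0.97 ± 0.18, limma adjusted p = 0.0154), in each of 13 fits with 1 rat left out. Ryr2 was called too (0.39 ± 0.08, adjusted p = 0.0257), in 8 of 13 such fits. Its adjusted p was 0.0501 to 0.0636 in the other 5, which left out replicates 2 and 4 of the chow rats and 2, 4 and 6 of the fructose rats. For Crh the most alike were Tmem177 (0.88), Bckdha (0.86) and Asic4 (0.85), for Crhr2 Abcb6 (0.92), Lama5 (0.91) and Pgm5 (0.91), and for Adcyap1r1 Med14 (0.95), Pygb (0.94) and Rhbdd2 (0.93). For Crhbp they were Clic3 (0.89), Mbd6 (0.89) and Unc119 (0.86), for Crhr1 Ccdc85a, Adtrp and Fam70b (r of 0.88, 0.88 and 0.83), and for Ucn Cbr4, Serinc3 and Mbd2 (0.88, 0.88 and 0.86). Fam70b followed Crhr1 on chow (0.92) and not on fructose (-0.02), and Mbd2 followed Ucn on fructose (0.93) more than on chow (0.29), where Ucn was near 0.

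Among 12 related peptides and class B receptors, 6 passed the filter on low values, of which 1 was called higher, 1 lower and 4 not. Gipr, the receptor for glucose-dependent insulinotropic polypeptide, rose from 2.88 ± 0.624 to 4.93 ± 0.400 FPKM (log2 fold change 0.70 ± 0.12, limma adjusted p = 0.00874), with no overlap between diets, and was called in all 13 fits with 1 rat left out. Vipr2, a receptor that PACAP shares with vasoactive intestinal peptide, fell from 12.5 ± 4.32 to 5.80 ± 2.48 FPKM (-1.06 ± 0.27, adjusted p = 0.0409). Its call was kept in 3 of 13 such fits, which left out replicate 1 of the chow rats and replicates 3 and 5 of the fructose rats. In the other 10 the adjusted p lay between 0.0507 (without chow replicate 6) and 0.0992 (without fructose replicate 4), and with no filter on low values it was 0.0571. Vip, its peptide, did not pass, at 32.8 ± 25.5 FPKM on chow and 8.02 ± 5.38 FPKM on fructose (adjusted p = 0.172). The median log2 fold change of the 6 genes was 0.37.

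Of 27 tested genes of cyclic AMP and CREB signalling, the path downstream of these receptors, 0 were called by limma, with 3 at an unadjusted p under 0.05. Those with the smallest p were Adcy8, an adenylyl cyclase, at 16.1 ± 2.22 FPKM on chow and 12.4 ± 2.13 FPKM on fructose (adjusted p = 0.0822, and 0.0266 without chow replicate 1), and Prkaca, a catalytic subunit of protein kinase A, at 148 ± 5.06 and 139 ± 6.51 FPKM (adjusted p = 0.234). The median log2 fold change of these 27 genes was -0.07. Of 15 tested genes of the stress axis and of CRH neurons 1 fell and 14 did not pass, with a median of -0.08. The one that fell was Pcsk2, a prohormone convertase, from 130 ± 31.8 to 85.0 ± 13.8 FPKM (-0.59 ± 0.14, adjusted p = 0.0389). It was called in 5 of 13 fits with 1 rat left out, which left out replicates 1 and 6 of the chow rats and 1, 3 and 5 of the fructose rats. Its adjusted p in the other 8 ran from 0.0535 (without chow replicate 3) to 0.0911 (without fructose replicate 4), and with no filter on low values it was 0.0519. Nr3c1, the glucocorticoid receptor, stood at 19.9 ± 0.922 FPKM on chow and 18.7 ± 1.22 FPKM on fructose (adjusted p = 0.396), and Fkbp5, a gene induced by glucocorticoids, at 11.7 ± 1.65 and 12.6 ± 1.48 FPKM (adjusted p = 0.636).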

How the data were processed

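RNA of whole hypothalamus was lysed with Trizol and QiaShredder and purified with an RNeasy kit, and mRNA libraries were built from total RNA, per the labels' protocols. The authors deposited a single table of FPKM. The submitters' processing notes name STAR 2.3.0e, Cufflinks 2.1.1, Cuffdiff and rat build rn5, without settings. Table columns were matched to rats by name and diets taken from the labels, with replicates numbered in accession order.

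Rows whose mean over rats reached 0.5 FPKM were tested on log2(FPKM + 0.5) by two-sided moderated tests with an intensity trend (limma 3.58.1, R 4.3.3), with Benjamini-Hochberg adjustment over all genes. Errors are SE for log2 fold changes and SD for FPKM. The procedure was tested on simulated data. Members and lists were chosen with earlier results of these data known. Named were the 8 members, called genes of 3 related lists (up to 4 each, or the 2 with the smallest p), the 2 most abundant genes of each marker list, and the 3 genes most like each member; of these, some markers are given as sums alone. Ucn2, Vip, Nr3c1, Fkbp5, Avp, Slc6a3, Fezf1, Nr5a1, Sox14, Foxb1, Phox2a, Chat, Prl, Pou1f1, Gh1, Pitx1, Cga, Tshb, Lhb, Pomc and Otx2 were named from the lists after their values were seen. Of the list symbols, Crtc3, Rapgef4, En1, Lmx1b, Nkx2-4 and Emx1 had no row under that name. Depth in reads is unknown, so the precision rests on the spread between rats. The alternatives tried were other pseudocounts (0.1, 1), other filters (none, mean over rats of 2 FPKM), quantile and median-ratio scaling, robust empirical Bayes, an adjusted p under 0.1, exact permutation tests and leaving out each rat.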

Additional observations from a re-analysis of the deposited data

Results flagged for a closer look

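In groups of 6 or 7 rats, 5 of the 26 sets of values checked (8 genes and 5 ratios in each diet) had 1 rat set apart by a gap above Dixon's 95% critical value. Chance gives about 1 in 20 if values are normally distributed, which FPKM of low genes and ratios need not be. Ucn on fructose was highest in replicate 1 at 8.79 FPKM, with the other 5 rats between 0.318 and 3.18 FPKM. Crhbp on fructose was highest in replicate 4 at 7.59 FPKM, with the others between 3.65 and 4.66 FPKM. On chow, Ucn3 was highest in replicate 4 at 8.25 FPKM (others 0 to 3.27 FPKM) and Crhr2 in replicate 1 at 3.26 FPKM (others 0.836 to 1.78 FPKM). The ratio of Ucn3 to Crhr2 was 4.62 in chow replicate 4, against 0 to 1.06 in the other chow rats. It shares its Ucn3 value with the flag for that gene, so these are not separate.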

How the results depend on the processing

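The 2 calls among the 8 genes held under both pseudocounts, no filter, both scalings, robust empirical Bayes and an adjusted p under 0.1. They came to 1 with a mean of at least 2 FPKM, where Ucn was not tested, and to 0 by the exact permutation test, which called 0 genes of all those tested. With 1 rat left out they ranged from 0 to 2. Over all genes, 466 calls became 308 with no filter, 915 at an adjusted p under 0.1, and 83 (without fructose replicate 4) to 859 (without chow replicate 1) with 1 rat left out. The no-filter calls were 159 higher and 149 lower, against 197 and 269. Of the related peptides and class B receptors 1 was called with no filter and 1 to 3 with 1 rat left out, of the cyclic AMP genes 1 at an adjusted p under 0.1 and 0 to 1 with 1 rat left out, and of the stress axis genes 0 with no filter and 0 to 2 with 1 rat left out. The cause of these changes was not tested. Among the 8 genes, those with no overlap between diets numbered 1, and 2 without fructose replicate 6, with 1 in the other 12 fits. Exact permutation p-values under 0.05 numbered 3 of 8, and 2 to 4 with 1 rat left out (chosen after seeing the data). The sign turned for Crh without chow replicate 1 (0.0557) or 4 (0.0302; range -0.1461 to 0.0557), for Crhr1 without chow replicate 4 (range -0.0661 to 0.0817) and for Adcyap1r1 without fructose replicate 6 (range -0.0099 to 0.083); each of these genes was uncalled throughout. With 1 rat left out, the mean difference of the ratio ran from -0.183 to 0.0297 for Crh to Crhr1, from -1.058 to -0.288 for Ucn3 to Crhr2, from -0.554 to -0.303 for Crh to Crhbp, from -2.456 to -1.304 for Crhr1 to Crhr2 and from 0.162 to 0.196 for Adcyap1 to Adcyap1r1. No paired analysis was possible because replicate numbers only name rats. Low levels limit Ucn and Ucn3 most.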
